A study of Homo sapiens with 10 samples.

Results

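The DNA replication machinery is described here as 53 genes that license replication origins, unwind the DNA, copy both strands and rebuild chromatin behind the fork. They were taken by symbol from a list of origin licensing, helicase, polymerase, clamp loader, lagging-strand and replisome genes. All 53 were found among the 58174 genes listed and all 53 passed the low-count filter, which left 13743 genes for testing. Transcripts were measured by stranded poly(A) RNA sequencing in SNU-387 cells, an established line from a pleomorphic hepatocellular carcinoma. Stable lines carried Yes WT, the wild-type kinase, or Yes T348I, in which the gatekeeper residue of this SRC-family tyrosine kinase is replaced. All 10 libraries, 5 per genotype, came from cells under 100 nM Dasatinib, an inhibitor of SRC-family and ABL kinases. The single comparison is thus T348I against wild type in drug-treated cells, and no untreated library was analysed here. What drives the transgenes, and whether each stable line is 1 clone or a pool, is not given in the sources used here.

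A cell copies its genome once per division by assembling the replication machinery in steps. The origin recognition complex binds DNA in late mitosis and G1, and with CDC6 and CDT1 it loads the MCM2-7 ring as an inactive double hexamer. At the start of S phase CDC45 and the GINS complex join the ring to form the active helicase, and polymerase alpha-primase, polymerase epsilon and polymerase delta then copy the DNA with the clamp PCNA. Many genes of this machinery are transcribed at the G1/S transition under E2F factors, which act at promoter sites with a core such as TTTCCCGC or TTTGGCGC, while several origin recognition subunits are known to be made at a steadier level through the cycle.

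Promoter windows in RefSeq (build GRCh38.p14, 250 bases before to 50 after a transcript start) were matched for 45 of the 53 genes. Windows for MCM4, MCM5, GINS4, POLD3, DSCC1, DNA2, RPA2 and RPA3 were not matched. Each window was searched on both strands for the E2F core words TTTCCCGC, TTTGGCGC, TTTCGCGC and TTTGCCGC, which can overlap each other in palindromic stretches. At least 1 word stood in 20 of the 45 windows (44.4%), against 3.33% of the first windows of all 27305 genes in the table and 5.53% of those of the 9852 tested genes that had one. Of the 26 matches, 20 lay within 100 bases of the start. A wider set, chosen after the letters were seen, adds TTTCCCGG, TTTGGCGG, TTTCGCGG and TTTGCCGG, and at least 1 of its words stood in 24 of the 45 windows (53.3%), against 6.20% of all first windows and 10.3% of those of tested genes. The genes with a word of the wider set alone are CDC45, MCM10, CHAF1A and RFC1. The windows below run from 120 bases before to 20 after the start, in the direction of the gene, with words of the first E2F set in capitals. They show 4 subunits of the MCM2-7 ring, the clamp PCNA, the licensing factors CDC6 and CDT1 and the chromatin factor UHRF1, all with a word of that set, and CDC45, ORC1 and ORC2 without one beside ORC3 with one. MCM2 is at chr3:127598291-127598430 (plus strand), MCM3 at chr6:52284723-52284862 (minus strand), MCM6 at chr2:135876424-135876563 (minus strand), MCM7 at chr7:100101378-100101517 (minus strand), PCNA at chr20:5126603-5126742 (minus strand) and CDC6 at chr17:40287759-40287898 (plus strand). CDT1 is at chr16:88803669-88803808 (plus strand), UHRF1 at chr19:4909381-4909520 (plus strand), CDC45 at chr22:19479800-19479939 (plus strand), ORC1 at chr1:52404404-52404543 (minus strand), ORC2 at chr2:200963641-200963780 (minus strand) and ORC3 at chr6:87590015-87590154 (plus strand).
MCM2: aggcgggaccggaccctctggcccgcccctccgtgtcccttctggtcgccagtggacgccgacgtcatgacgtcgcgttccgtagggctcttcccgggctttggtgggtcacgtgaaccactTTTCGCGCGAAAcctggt
MCM3: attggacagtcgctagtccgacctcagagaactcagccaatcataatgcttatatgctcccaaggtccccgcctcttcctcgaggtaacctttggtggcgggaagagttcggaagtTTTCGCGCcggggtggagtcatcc
MCM6: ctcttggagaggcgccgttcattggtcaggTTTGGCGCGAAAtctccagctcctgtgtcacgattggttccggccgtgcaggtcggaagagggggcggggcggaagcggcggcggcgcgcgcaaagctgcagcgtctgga
MCM7: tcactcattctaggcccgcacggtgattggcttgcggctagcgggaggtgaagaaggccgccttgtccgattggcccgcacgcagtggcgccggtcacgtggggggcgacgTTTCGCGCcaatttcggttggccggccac
PCNA: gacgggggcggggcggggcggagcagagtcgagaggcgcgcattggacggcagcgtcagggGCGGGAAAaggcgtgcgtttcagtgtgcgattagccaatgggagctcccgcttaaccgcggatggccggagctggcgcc
CDC6: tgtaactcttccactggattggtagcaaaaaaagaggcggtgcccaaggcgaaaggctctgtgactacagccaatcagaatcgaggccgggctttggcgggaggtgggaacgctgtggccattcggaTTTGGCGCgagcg
CDT1: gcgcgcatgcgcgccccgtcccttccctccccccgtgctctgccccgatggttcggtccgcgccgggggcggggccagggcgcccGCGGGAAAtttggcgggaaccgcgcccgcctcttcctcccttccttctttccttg
UHRF1: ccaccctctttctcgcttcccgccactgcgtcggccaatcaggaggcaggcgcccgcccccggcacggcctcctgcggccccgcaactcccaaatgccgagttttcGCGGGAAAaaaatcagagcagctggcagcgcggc
CDC45: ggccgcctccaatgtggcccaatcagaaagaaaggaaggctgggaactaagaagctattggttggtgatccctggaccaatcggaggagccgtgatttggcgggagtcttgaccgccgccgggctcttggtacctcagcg
ORC1: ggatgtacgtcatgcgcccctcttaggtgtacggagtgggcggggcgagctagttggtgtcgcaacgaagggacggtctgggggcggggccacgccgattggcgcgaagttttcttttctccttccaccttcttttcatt
ORC2: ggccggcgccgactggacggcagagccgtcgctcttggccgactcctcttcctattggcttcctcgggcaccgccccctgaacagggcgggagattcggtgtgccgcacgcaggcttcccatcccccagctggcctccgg
ORC3: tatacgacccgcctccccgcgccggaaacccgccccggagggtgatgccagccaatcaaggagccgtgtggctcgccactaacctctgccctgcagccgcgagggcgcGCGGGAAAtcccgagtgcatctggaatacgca

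In the printed bases of MCM2 and of MCM6, 2 matches on opposite strands overlap in 1 stretch, and the full MCM6 window holds 4 matches, the other 2 at positions -152 and -148 from the start. The 20 genes with a word of the first set had a median log2 fold change of 0.75 in the comparison below, and the 25 without one 0.69. A word of that set stood in 19 of the 40 windows of genes whose transcripts were called higher and in 1 of the 5 windows of genes that were not called, that of ORC3. For the wider set these counts were 22 of 40 and 2 of 5, with RFC1 as the added uncalled gene. The base composition of the windows was near that of tested genes, with a median GC content of 65.7% against 65.3%. CCAAT, the word bound by NF-Y, stood in either direction in 62.2% of the 45 windows and in 36.7% of those of tested genes. TTTGAA, a word found in promoters of many genes expressed in G2 and mitosis, stood in 0 of 45 windows and in 9.73% of those of tested genes. A match here is a run of letters and was not tested as a binding site.

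Reads assigned to genes numbered 10168307 to 16939029 per library. The titles of the samples follow 2 styles, long (3 libraries per genotype) and short (2 per genotype), and the model held this title set as a term, since it may be a batch. Whether each library had its own culture is not stated in the labels, and p-values then measure only how far these samples spread, which may be technical variation. Counting noise nearly accounted for the differences among the 3 T348I libraries with long titles (chi-square per degree of freedom 1.58 to 2.04), but not for those among the 3 wild-type ones (12.8 to 48.6). Of these 3, library 1 stood apart from library 2 (48.6) and library 3 (34.6), while libraries 2 and 3 were closer (12.8). The value for the 2 wild-type short-title libraries was 26.1. In wild-type long-title library 2, 8.64% of the reads were unmapped. YES1 transcripts, which the construct and the endogenous gene share, were measured at 303 ± 102 CPM in wild-type libraries and 453 ± 86.4 CPM in T348I ones (mean ± SD over 5 libraries; CPM, the reads of a gene scaled by library size). Of 12 hepatocyte markers 7 stayed below 1 CPM in every library, among them albumin (ALB). The sum of all 12 was 13.8 to 25.9 CPM in wild-type libraries and 11.7 to 26.3 CPM in T348I libraries. SERPINA1, AFP and CPS1 passed the low-count filter, and SERPINA1 had medians of 16.8 and 16.6 CPM. The summed level of 6 fibroblast and matrix markers, all detected and most of it COL1A1 and COL1A2, was 1157 to 6617 CPM in wild-type libraries and 1157 to 4530 CPM in T348I libraries. Of these 6, LUM ran from 76.3 to 198 CPM in wild-type libraries and from 39.7 to 62.4 CPM in T348I libraries, without overlap, and PDGFRB had a median of 7.29 against 2.97 CPM. Summed endothelial markers (5 genes, 3 of them below 1 CPM everywhere) reached 5.72 to 14.3 CPM in wild-type libraries and 3.38 to 5.39 CPM in T348I libraries, and leukocyte markers (5 genes) 0.392 to 1.47 CPM and 0.665 to 1.49 CPM. The part of these markers in the results was not tested.

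Transcripts of the replication machinery were more abundant in cells with Yes T348I than in cells with wild-type Yes across nearly every sub-complex. Of the 53 genes 47 were called higher (edgeR quasi-likelihood test, Benjamini-Hochberg adjusted p under 0.05), where 13.7% of all tested genes were. None was called lower (13.3% of tested genes were), and 0 genes fell at an unadjusted p under 0.05 or by DESeq2 or limma-voom. The other 6, ORC2, ORC3, ORC4, ORC5, RFC1 and RPA2, did not pass the test. The rises were moderate and alike in size: the 47 called genes lay between 1.22-fold and 2.12-fold with a median of 1.67-fold, and only CDC45 and UHRF1 passed 2-fold, as 0.830% of tested genes did. Over all 53 genes the median log2 fold change was 0.71 (quartiles 0.62 and 0.85), against -0.03 over all tested genes. Their summed level was 2479 ± 317 CPM in wild-type libraries and 3884 ± 98.3 CPM in T348I libraries (SD, n = 5). In 39 of the 53 genes every T348I library lay above every wild-type library, where 6.94% of tested genes had this pattern. In bulk RNA, more cells in S phase and more of these transcripts per cell cannot be told apart. Nor can the mutation be told apart from other differences between the stable lines, such as the YES1 transcript level given above.

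**Figure D1:**
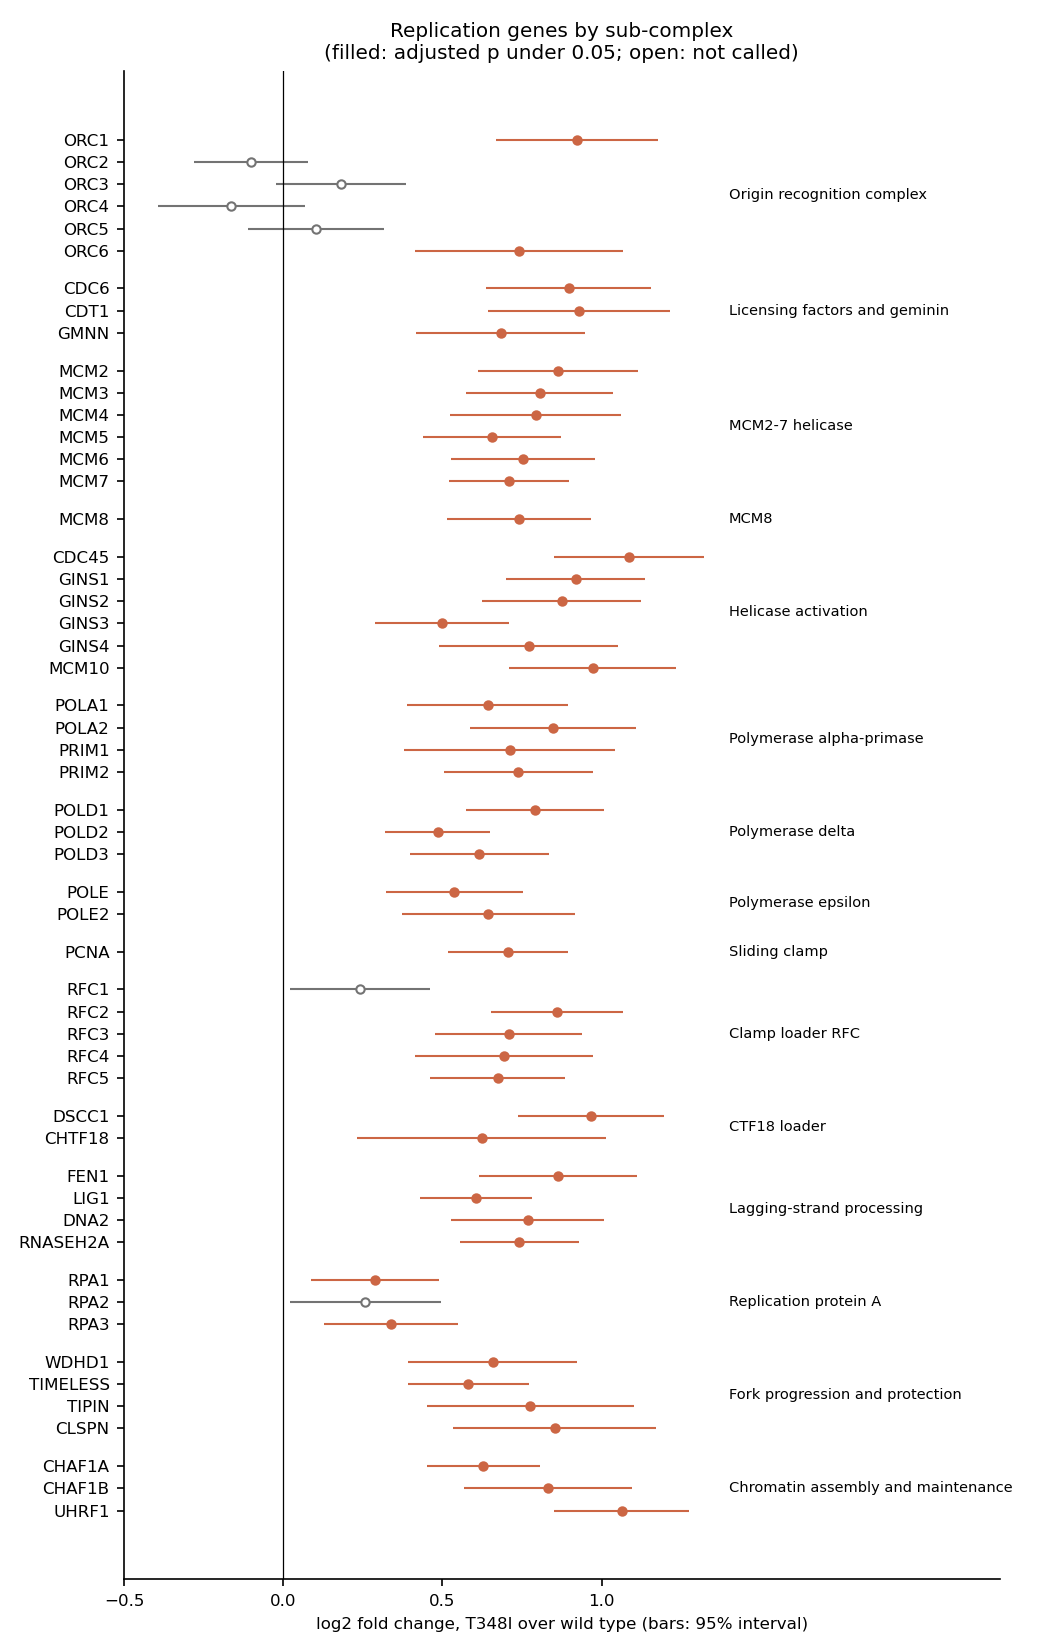
Log2 fold change of each of the 53 replication genes, T348I over wild type (x axis), with 95% intervals from edgeR, grouped by sub-complex. Filled points passed an adjusted p of 0.05 and open points did not. Most points sit between 0.5 and 1, and the open points belong to ORC2, ORC3, ORC4, ORC5, RFC1 and RPA2.

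In the origin recognition complex, the 6-subunit ATPase that marks origins, ORC1 and ORC6 rose while the 4 core subunits ORC2 to ORC5 were not called. ORC1, the subunit that is lost and remade each cycle, stood at 12.6, 19.95, 20.4, 20.1 and 20.9 CPM in the wild-type libraries (long-title 1, 2 and 3, then short-title 1 and 2, an order kept below) and at 32.1, 29.7, 33.1, 41.8 and 41.9 CPM in the T348I libraries. All T348I values lay above all wild-type values, and wild-type long-title library 1 was lowest. ORC1 rose 1.90-fold, or 0.92 ± 0.12 on the log2 scale (SE; edgeR adjusted p = 0.000178). GENCODE 29 places ORC1 (ENSG00000085840.12) at chromosome 1, 52372829 to 52404459, minus strand (GRCh38). ORC6, the smallest subunit, rose from 20.8 ± 5.03 to 34.6 ± 3.29 CPM (0.74 ± 0.15; edgeR adjusted p = 0.00334), again without overlap. ORC2 stood at 49.7, 64.7, 57.1, 58.4 and 49.8 CPM in wild-type libraries and 50.3, 55.0, 51.7, 52.0 and 51.3 CPM in T348I libraries, so that the T348I values fell inside the wild-type range. Its log2 fold change was -0.10 with a 95% interval of -0.28 to 0.08. The intervals of ORC3 (-0.02 to 0.39), ORC4 (-0.39 to 0.07) and ORC5 (-0.11 to 0.32) also included 0. The lower bounds of ORC1 and ORC6 were 0.67 and 0.41, and the difference between these subunits and ORC2 to ORC5 was not itself tested. ORC4 passed as lower when wild-type long-title library 1 was left out (-0.25, edgeR adjusted p = 0.0323), and ORC3 as higher when wild-type long-title library 2 was dropped (0.28, adjusted p = 0.0124) or without both libraries (0.24, adjusted p = 0.0259). Over all alternatives the adjusted p of ORC4 ran from 0.0323 to 0.648 and that of ORC3 from 0.0124 to 0.544.

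**Figure D2:**
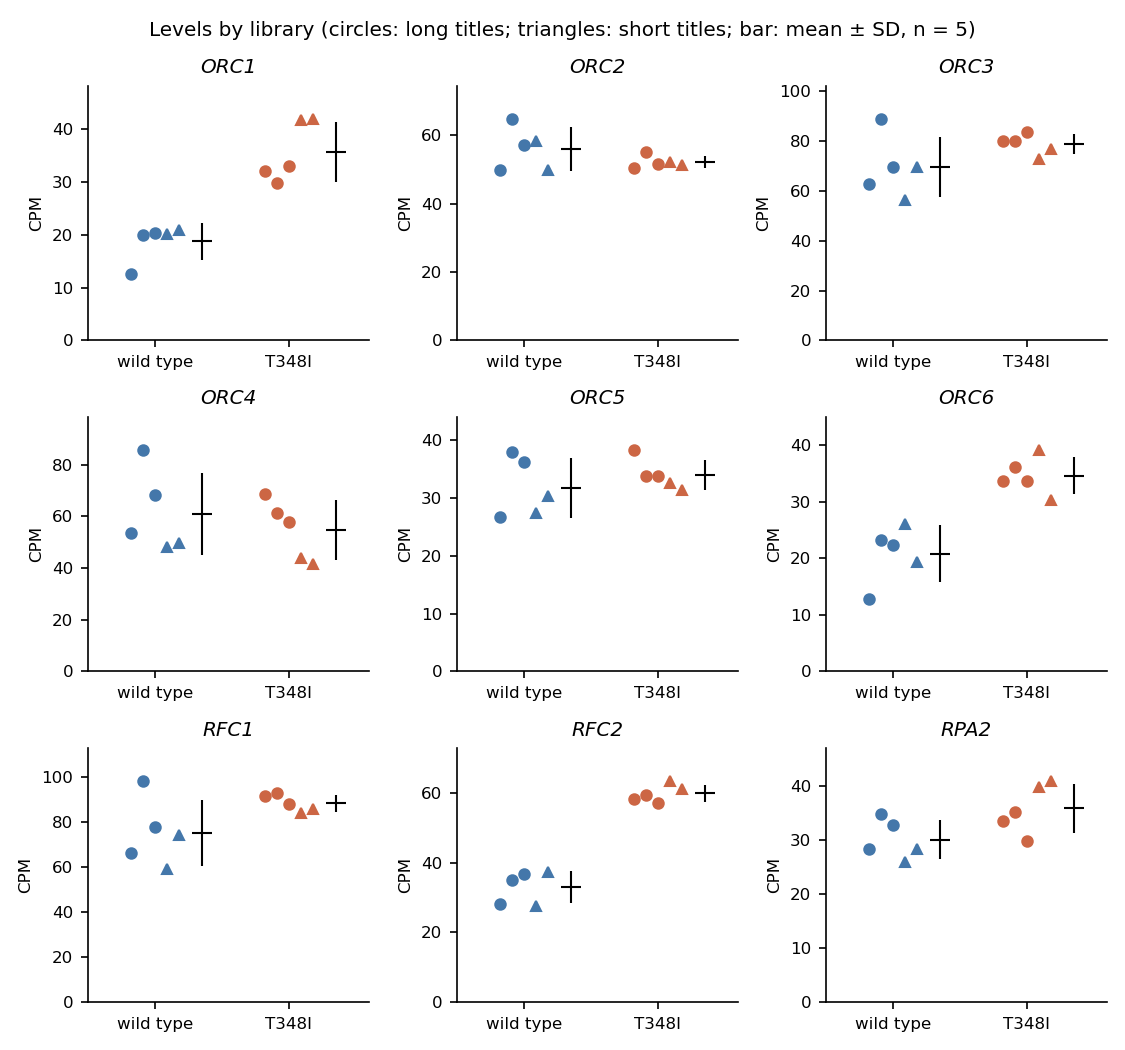
CPM (y axis, from 0) of ORC1 to ORC6, RFC1, RFC2 and RPA2 in the 5 wild-type and 5 T348I libraries, with circles for long-title and triangles for short-title libraries and a bar for the mean ± SD. The genotypes separate for ORC1, ORC6 and RFC2 and overlap for the other 6 genes.

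The licensing factors CDC6 and CDT1, which bring the MCM ring to the origin, and their inhibitor geminin (GMNN) all rose. CDC6, with an E2F word in the window printed above, stood at 33.5, 53.5, 48.3, 34.5 and 48.1 CPM in wild-type libraries and 84.8, 81.7, 85.0, 81.8 and 72.0 CPM in T348I libraries. The T348I levels were close together and all above the wild-type ones. The log2 fold change of CDC6 was 0.90 ± 0.12 (edgeR adjusted p = 0.000226). CDT1 rose from 24.0 ± 5.51 to 45.8 ± 3.33 CPM, 1.90-fold (edgeR adjusted p = 0.000343). Geminin stood at 30.4, 54.2, 41.1, 33.9 and 30.8 CPM in wild-type libraries and 63.7, 70.3, 61.4, 57.3 and 51.1 CPM in T348I libraries. Here the groups touched, because wild-type long-title library 2 exceeded T348I short-title library 2. GMNN rose 1.61-fold (log2 0.68 ± 0.12; edgeR adjusted p = 0.00154).

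The 6 subunits of the MCM2-7 ring rose together and by nearly the same factor. Their fold changes spanned 1.58 to 1.82, a log2 range of 0.21, and in each of the 6 every T348I library lay above every wild-type library. MCM7 stood at 106, 134, 146, 111 and 130.4 CPM in wild-type libraries and 207, 212, 212, 199 and 198 CPM in T348I libraries. MCM7 rose 1.64-fold (0.71 ± 0.09; edgeR adjusted p = 0.000138). MCM5, the subunit with the smallest change, stood at 69.4, 84.8, 106, 65.0 and 78.6 CPM in wild-type libraries and 139.7, 136, 134, 118 and 108 CPM in T348I libraries, and its highest wild-type library nearly reached its lowest T348I library. MCM5 rose 1.58-fold (0.66 ± 0.10; edgeR adjusted p = 0.000523). MCM2 rose from 86.4 ± 23.3 to 156 ± 19.7 CPM, 1.82-fold, the largest of the ring. MCM3 (1.75-fold), MCM4 (1.73-fold) and MCM6 (1.69-fold) lay between. MCM8, a relative of the ring that works with MCM9 in recombination, stood at 60.7, 86.8, 77.9, 88.3 and 67.9 CPM in wild-type libraries and 125, 124, 134, 140.0 and 115 CPM in T348I libraries, without overlap. It rose 1.67-fold (0.74 ± 0.10; edgeR adjusted p = 0.000317).

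Genes that turn the loaded ring into an active helicase gave some of the larger rises, with a median log2 fold change of 0.90 over 6 genes and no overlap in any of them. CDC45, which joins the MCM ring and GINS in the active helicase, stood at 16.0, 21.9, 22.0, 14.4 and 19.2 CPM in wild-type libraries and 43.3, 43.9, 46.4, 33.8 and 32.6 CPM in T348I libraries. The lowest T348I library lay well above the highest wild-type library, and within each genotype the short-title libraries were below most long-title ones. Its log2 fold change of 1.09 ± 0.11 was the highest of the 53 (edgeR adjusted p = 4.99e-05). GENCODE 29 places CDC45 (ENSG00000093009.9) at chromosome 22, 19479459 to 19520612, plus strand (GRCh38). MCM10, which promotes origin firing, rose from 25.3 ± 4.91 to 49.6 ± 3.41 CPM (1.96-fold). Of the tetramer GINS, GINS1 rose 1.89-fold, GINS2 1.83-fold and GINS4 1.71-fold. GINS3 stood at 15.7, 16.3, 18.5, 14.3 and 13.7 CPM in wild-type libraries and 21.5, 23.1, 20.5, 21.3 and 23.8 CPM in T348I libraries, a narrow gap at low level. Its change was smaller, 1.41-fold (0.50 ± 0.10; edgeR adjusted p = 0.00259).

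All 9 polymerase subunit genes among the 53 rose. In polymerase alpha-primase, which lays down the RNA-DNA primers, POLA2 stood at 20.1, 32.4, 33.0, 23.4 and 27.5 CPM in wild-type libraries and 52.4, 48.1, 49.2, 49.4 and 45.6 CPM in T348I libraries, with a clear gap. POLA2 rose 1.799-fold (0.85 ± 0.12; edgeR adjusted p = 0.00033). POLA1, the catalytic subunit, stood at 41.1, 61.4, 53.7, 34.3 and 52.0 CPM in wild-type libraries and 79.1, 78.1, 82.6, 69.8 and 68.5 CPM in T348I libraries, also without overlap, and rose 1.56-fold (0.64 ± 0.12; edgeR adjusted p = 0.00162). The primase subunits PRIM1 (1.64-fold) and PRIM2 (1.67-fold) lay between, and PRIM1 was the one gene of the 4 whose groups overlapped. In polymerase delta, the main lagging-strand enzyme, the catalytic subunit POLD1 stood at 24.8, 17.7, 26.9, 31.3 and 34.6 CPM in wild-type libraries and 38.3, 40.05, 40.4, 59.6 and 56.7 CPM in T348I libraries. Short-title libraries were higher than long-title ones in both genotypes, and POLD1 rose 1.73-fold (0.79 ± 0.10; edgeR adjusted p = 0.000169). POLD2 stood at 91.2, 75.6, 92.6, 85.2 and 100.0 CPM in wild-type libraries and 122, 118, 116, 136 and 131 CPM in T348I libraries and had the smallest rise of the polymerase genes, 1.399-fold (0.48 ± 0.08; edgeR adjusted p = 0.000612), with no overlap. POLD3 rose 1.53-fold.

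Polymerase epsilon, which copies the leading strand, was measured through 2 of its genes. POLE, the catalytic subunit, stood at 44.6, 49.3, 63.1, 77.9 and 63.5 CPM in wild-type libraries and 78.2, 82.6, 79.3, 102 and 88.1 CPM in T348I libraries. Its highest wild-type library, short-title 1, lay just below the lowest T348I library, and POLE rose 1.45-fold (0.54 ± 0.10; edgeR adjusted p = 0.00183). POLE2 was among the least abundant genes, at 7.13, 6.19, 7.14, 7.46 and 6.23 CPM in wild-type libraries and 9.86, 10.03, 9.28, 13.9 and 10.5 CPM in T348I libraries. T348I short-title library 1 was the highest, and POLE2 rose 1.56-fold (0.64 ± 0.13; edgeR adjusted p = 0.00254).

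PCNA, the sliding clamp that holds polymerases on DNA, stood at 193, 269.9, 237, 172 and 176 CPM in wild-type libraries and 362, 379, 383, 299.9 and 281 CPM in T348I libraries. The groups did not overlap, although T348I short-title library 2 came close to wild-type long-title library 2. PCNA rose 1.63-fold (0.71 ± 0.09; edgeR adjusted p = 0.000157). GENCODE 29 places PCNA (ENSG00000132646.10) at chromosome 20, 5114953 to 5126626, minus strand (GRCh38). Of the 5 subunits of replication factor C (RFC), the ATPase that opens the clamp, 4 rose. RFC2 stood at 28.2, 34.9, 36.8, 27.7 and 37.2 CPM in wild-type libraries and 58.2, 59.2, 57.1, 63.3 and 61.2 CPM in T348I libraries, with a wide gap, and rose 1.81-fold (0.86 ± 0.10; edgeR adjusted p = 7.65e-05). RFC3 (1.63-fold), RFC4 (1.62-fold) and RFC5 (1.59-fold) rose as well, RFC4 with overlapping groups. RFC1, the large subunit, stood at 66.3, 98.2, 77.9, 59.1 and 74.1 CPM in wild-type libraries and 91.7, 92.7, 87.9, 84.0 and 85.6 CPM in T348I libraries. Wild-type long-title library 2 was above every T348I library. The log2 fold change of RFC1 was 0.24 with a 95% interval of 0.02 to 0.46 (edgeR adjusted p = 0.0954). Without that library it was 0.34 (edgeR adjusted p = 0.00563), and with wild-type long-title libraries 1 and 2 both removed 0.30 (0.0103). It was 0.27 without the low-count filter (0.0414), and over all alternatives the adjusted p ran from 0.00563 to 0.478.

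The alternative loader that carries CTF18 in place of RFC1 was represented by 2 genes. DSCC1 stood at 7.84, 10.6, 8.84, 7.05 and 7.25 CPM in wild-type libraries and 16.5, 16.9, 16.4, 15.3 and 15.6 CPM in T348I libraries. Its T348I values were tightly grouped and all above wild type, and it rose 1.95-fold (0.97 ± 0.11; edgeR adjusted p = 7.65e-05). CHTF18 stood at 24.6, 26.0, 45.1, 65.6 and 40.6 CPM in wild-type libraries and 55.5, 58.3, 60.9, 70.6 and 57.5 CPM in T348I libraries. Wild-type short-title library 1 exceeded 4 of the 5 T348I libraries, while wild-type long-title libraries 1 and 2 were far lower. CHTF18 rose 1.54-fold (0.62 ± 0.18; edgeR adjusted p = 0.0226). The call was lost under 8 alternatives, with adjusted p from 0.0523 to 0.349. Among them were leaving out wild-type short-title library 2 (0.0567), T348I short-title library 1 (0.0523) or T348I long-title library 2 (0.0525) or 3 (0.0553). Another was leaving out wild-type long-title libraries 1 and 2 together (log2 fold change 0.32, edgeR adjusted p = 0.0728).

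The genes that finish the lagging strand all rose. RNASEH2A, the catalytic subunit of the RNase H2 that cuts RNA from RNA-DNA hybrids, stood at 22.3, 23.3, 26.6, 29.01 and 35.5 CPM in wild-type libraries and 36.6, 41.8, 41.7, 56.4 and 52.4 CPM in T348I libraries, with a small gap. It rose 1.67-fold (0.74 ± 0.09; edgeR adjusted p = 0.000101), and 30.8% of its exon bases also belong to THSD8 on the same strand, where reads are ambiguous and not counted. The flap nuclease gene FEN1 rose from 40.6 ± 9.19 to 73.6 ± 5.99 CPM, 1.82-fold. LIG1, the ligase that joins Okazaki fragments, stood at 27.5, 23.3, 28.7, 37.3 and 40.4 CPM in wild-type libraries and 39.4, 35.9, 40.9, 60.7 and 64.7 CPM in T348I libraries. Short-title libraries were higher in both genotypes, so that the groups overlapped over all libraries but not within a title set. LIG1 rose 1.52-fold (0.61 ± 0.08; edgeR adjusted p = 0.000234), and DNA2, a nuclease for long flaps, 1.70-fold with the same kind of overlap. Without the title set term neither passed, LIG1 with an edgeR adjusted p of 0.0780 and DNA2 with 0.0597, and these were the highest over the alternatives.

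Replication protein A (RPA), the trimer that coats single-stranded DNA, had overlapping groups for all 3 subunits, and its called subunits RPA1 and RPA3 had the smallest rises of the 47 called genes. RPA3 stood at 27.8, 30.4, 27.7, 36.1 and 29.4 CPM in wild-type libraries and 41.4, 41.1, 37.2, 32.7 and 38.8 CPM in T348I libraries. The long-title libraries separated by genotype, but wild-type short-title library 1 lay above T348I short-title library 1. RPA3 rose 1.26-fold (0.34 ± 0.10; edgeR adjusted p = 0.0217), and its call was lost under 7 alternatives with adjusted p from 0.0512 to 0.570. RPA1, the DNA-binding subunit, rose 1.22-fold (0.29 ± 0.09; edgeR adjusted p = 0.0362), and its call was lost under 8, with adjusted p from 0.0740 to 0.162. The libraries whose removal ended a call were wild-type long-title 3 (adjusted p = 0.0512), wild-type short-title 2 (0.0514) and T348I long-title 1 (0.0653) and 2 (0.0631) for RPA3. For RPA1 they were T348I long-title 2 (0.0742) and 3 (0.0740) and T348I short-title 1 (0.0777) and 2 (0.0912). RPA2 stood at 28.3, 34.7, 32.8, 25.9 and 28.2 CPM in wild-type libraries and 33.5, 35.2, 29.7, 39.8 and 40.8 CPM in T348I libraries. Its short-title libraries separated by genotype and its long-title libraries did not. RPA2 did not pass over all libraries (0.26, 95% interval 0.02 to 0.49; edgeR adjusted p = 0.0982), but passed once wild-type long-title library 2 was left out (0.33, adjusted p = 0.0300), and over all alternatives its adjusted p ran from 0.0166 to 0.866.

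Genes that steady the moving fork rose, all 4 without overlap between genotypes. TIMELESS, a core of the fork protection complex, stood at 45.8, 59.1, 64.0, 51.3 and 53.6 CPM in wild-type libraries and 81.2, 81.3, 81.2, 87.9 and 77.6 CPM in T348I libraries, and the T348I values were close together. It rose 1.496-fold (0.58 ± 0.09; edgeR adjusted p = 0.000499). Its partner TIPIN rose from 5.19 ± 0.770 to 8.93 ± 1.43 CPM (1.71-fold), and 21.0% of its exon bases are shared with other genes on the same strand. CLSPN, the checkpoint mediator claspin, rose 1.81-fold, and WDHD1, which links polymerase alpha to the helicase, 1.58-fold. Behind the fork, UHRF1, which reads hemimethylated DNA and recruits DNMT1, stood at 21.8, 23.4, 30.6, 34.1 and 41.7 CPM in wild-type libraries and 48.6, 51.4, 54.5, 83.6 and 80.6 CPM in T348I libraries. Short-title libraries were higher in both genotypes, and no wild-type library reached a T348I one. UHRF1 rose 2.09-fold (1.06 ± 0.10; edgeR adjusted p = 4.77e-05), the lowest p of the 53. GENCODE 29 places UHRF1 (ENSG00000276043.4) at chromosome 19, 4903080 to 4962154, plus strand (GRCh38). CHAF1A, the large subunit of chromatin assembly factor 1, stood at 31.4, 37.2, 41.8, 40.7 and 45.7 CPM in wild-type libraries and 57.4, 53.9, 56.9, 68.7 and 67.6 CPM in T348I libraries, without overlap. It rose 1.55-fold (0.63 ± 0.08; edgeR adjusted p = 0.000206), and its partner CHAF1B 1.78-fold.

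The machinery was not at 1 level among the wild-type libraries. Relative to the wild-type mean of the same title set, the median of the 53 genes on the log2 scale was -0.30 in wild-type long-title library 1, 0.20 in library 2 and 0.12 in library 3. In the wild-type short-title libraries it was -0.08 and 0.08. Each wild-type library is part of that mean, which draws its value toward 0. Against the other wild-type libraries of the set the medians were -0.45, 0.30 and 0.18 (long-title 1, 2 and 3) and -0.17 and 0.17 (short-title 1 and 2). Only 4 of the 53 genes lay above the wild-type mean of the same title set in wild-type long-title library 1, and 42 and 47 did in libraries 2 and 3. The T348I libraries were more even, at 0.72, 0.73 and 0.70 in the long-title and 0.82 and 0.72 in the short-title set, with 50 to 52 of the 53 genes above the wild-type mean. Over all tested genes the library medians on this scale ran from -0.016 (T348I short-title library 1) to 0.011 (wild-type short-title library 2). The share of all tested genes above the wild-type mean was not counted. The SD among wild-type libraries exceeded that among T348I libraries in 36 of the 53 genes. The share of all tested genes with this pattern was not counted. Wild-type libraries also differed more over genes as a whole. In the short-title set the chi-square per degree of freedom was 26.1 in wild type and 7.36 in T348I, and the long-title values are given above. Leaving out wild-type long-title library 1 lowered the median log2 fold change of the 53 genes from 0.71 to 0.64 and left 47 called higher, where 14.1% of tested genes were. Without wild-type long-title libraries 1 and 2 together, 49 were called higher, where 16% of tested genes were.

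**Figure D3:**
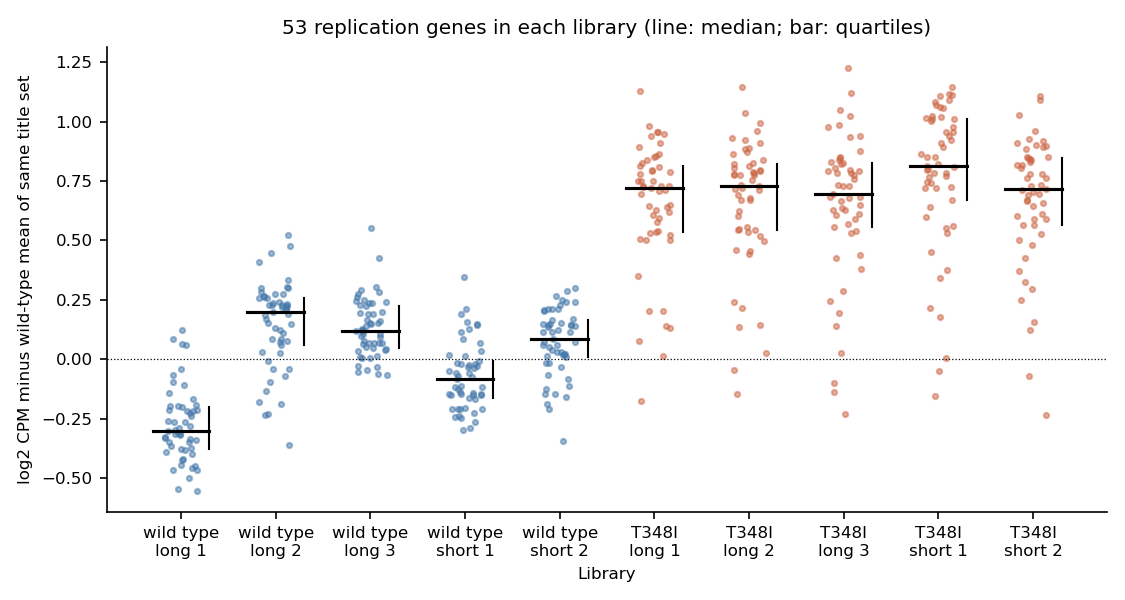
Log2 CPM of the 53 replication genes in each of the 10 libraries, minus the wild-type mean of the same title set (y axis), with a line at the median and a bar over the quartiles. Wild-type long-title library 1 has a median of -0.30 and the 5 T348I libraries have medians between 0.70 and 0.82.

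The rise was present in both title sets, which share no library. In the long-title libraries alone 36 of the 53 genes were called higher, where 5.21% of tested genes were, and the median log2 fold change was 0.70. In the short-title libraries alone 44 were called, where 6.43% of tested genes were, with a median of 0.76. A total of 33 genes passed in both sets and 51 had a positive change in both, while 45 had the larger change in the short-title set. The matching shares over all tested genes were not counted. Called genes that did not pass in the long-title libraries alone, with edgeR adjusted p from 0.0532 to 0.158, were GMNN, GINS3, GINS4, PRIM1, POLD3, POLE2, RFC4, WDHD1, TIPIN, CLSPN and RPA1. In the short-title libraries alone these were POLE (0.0582), CHTF18 (0.349), RPA1 (0.118) and RPA3 (0.570), and RPA2 was called there (log2 fold change 0.59, adjusted p = 0.0166) after 0.04 in the long-title set (adjusted p = 0.866). The genotype by title set interaction was called for 0 of the 53 genes by edgeR, as for 0% of tested genes, and RPA2 alone had an unadjusted p under 0.05 (0.0115), which 3.34% of tested genes had. Without the title set term 42 of the 53 genes were called higher, where 5.95% of tested genes were.

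**Figure D4:**
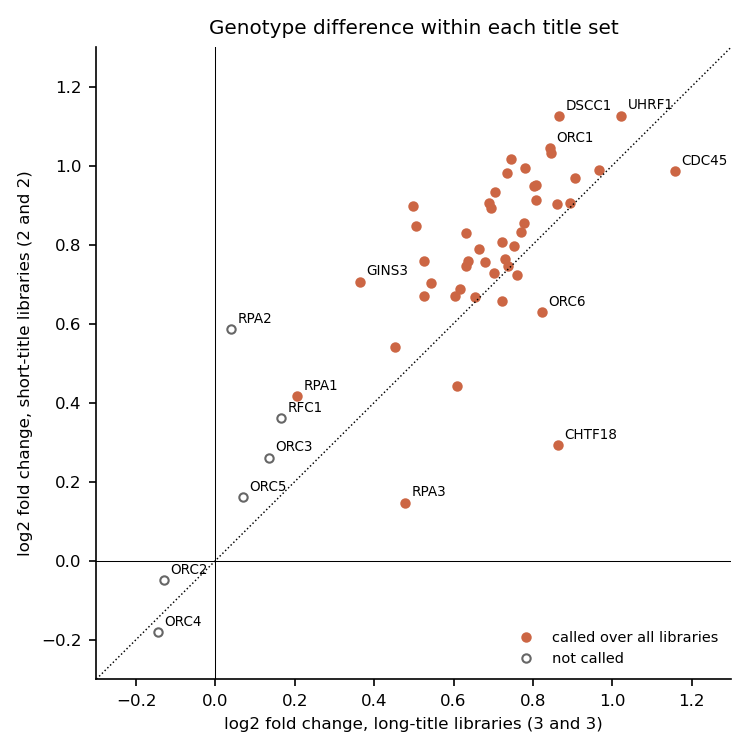
Log2 fold change, T348I over wild type, in the short-title libraries (y axis, 2 against 2) against the long-title libraries (x axis, 3 against 3), for the 53 replication genes. The dotted line marks equal change, 45 genes lie above it, and ORC2 and ORC4 are the genes below 0.

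Levels can be set beside each other per length of exon. On that scale, CPM per kilobase of all annotated exon bases, PCNA was the most abundant gene, at 142 ± 28.9 in wild-type and 232 ± 32.1 in T348I libraries. The MCM2-7 genes lay between 10.99 (MCM5) and 34.3 (MCM3) in wild-type libraries. In the origin recognition complex the order of wild-type levels was ORC3 (18.9 ± 3.29), ORC2 (9.59 ± 1.08), ORC5 (8.52 ± 1.38), ORC4 (6.85 ± 1.78), ORC1 (5.95 ± 1.10) and ORC6 (4.83 ± 1.17). From ORC2 down each neighbour in this order lay within the sum of the 2 SDs. In T348I libraries ORC1 (11.3 ± 1.81) stood above ORC2 (8.92 ± 0.303). The subunits of GINS and CDC45 were low, from 3.07 (GINS3) to 6.98 (GINS1) in wild-type libraries. The least abundant of the 53 genes were DNA2 (1.87 ± 0.536), TIPIN (1.89 ± 0.279) and POLE2 (2.31 ± 0.197). The exon length counts bases that a given transcript may not use, so these orders depend on the annotation.

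**Figure D5:**
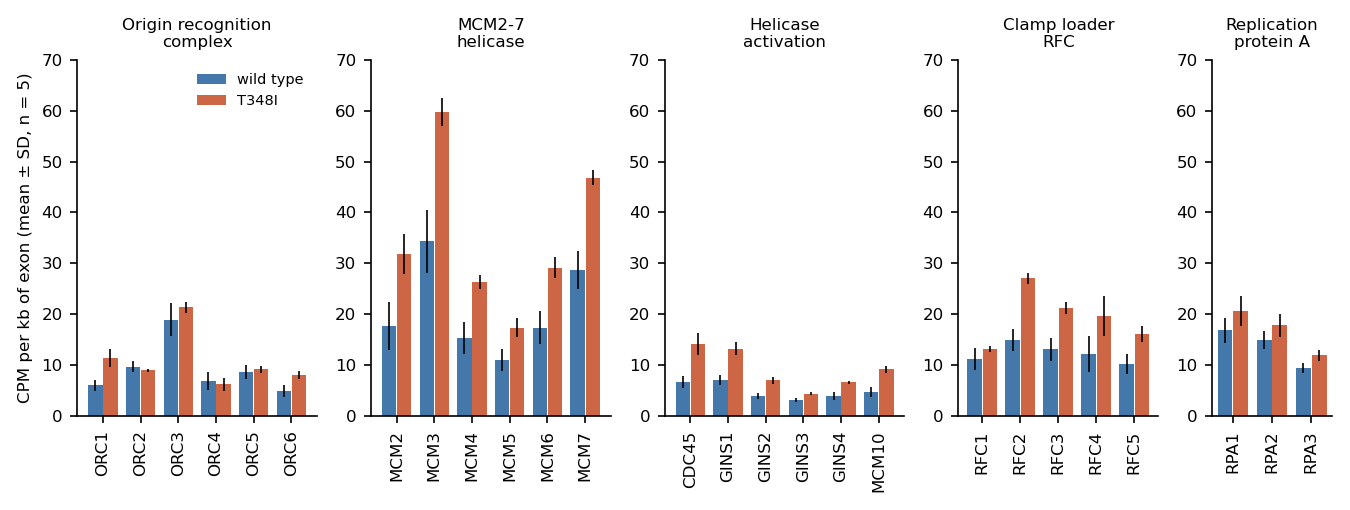
Level per length (y axis, CPM per kilobase of exon, from 0) of the genes of 5 sub-complexes in wild-type and T348I libraries, as bars with the mean ± SD of 5 libraries. ORC1 and ORC6 are low in wild-type and rise, while ORC2 to ORC5 have bars of near equal height in both genotypes.

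Among 39 further replication genes outside the 53, 38 were tested, and RTEL1 was too low. Of the 38, 26 were called higher (13.7% of tested genes were), 1 lower (13.3% of tested genes were) and 11 were not called, with a median log2 fold change of 0.47. The lowest p-values belonged to ASF1B, a histone chaperone (0.96 ± 0.11; edgeR adjusted p = 8.27e-05), and PCLAF, a PCNA-binding protein (1.01 ± 0.12; adjusted p = 9.28e-05). MMS22L, which acts in recombination at stalled forks (0.79 ± 0.10; edgeR adjusted p = 0.000138), and the helicase gene BLM (0.75 ± 0.10; adjusted p = 0.000174) came next. ASF1B stood at 27.0, 23.9, 33.1, 32.2 and 43.2 CPM in wild-type libraries and 54.5, 57.6, 62.0, 62.5 and 72.5 CPM in T348I libraries, without overlap. POLD4, the small subunit of polymerase delta, was the gene called lower. It stood at 38.8, 22.2, 40.5, 45.1 and 37.7 CPM in wild-type libraries and 28.1, 26.2, 24.8, 27.1 and 29.1 CPM in T348I libraries, so that wild-type long-title library 2 lay below every T348I library and the other wild-type libraries above. Its log2 fold change was -0.44 ± 0.14 (edgeR adjusted p = 0.0328). The call was lost under 10 alternatives, with adjusted p from 0.0501 to 0.295, among them the removal of any single T348I library but long-title 1, of wild-type long-title library 3 (0.0846) or of wild-type short-title library 1 (0.0889) or 2 (0.0501). Among genes not called the largest changes were those of LRWD1, an origin recognition partner (0.23; adjusted p = 0.152), and ETAA1, an activator of the kinase ATR (-0.23; adjusted p = 0.108). Over the alternatives LRWD1 ran from 0.07 to 0.31 and ETAA1 from -0.30 to -0.11.

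DNA polymerases and ligases that serve repair, lesion bypass and mitochondria were counted in the same way. Of 18 such genes and their partners 5 were called higher, where 13.7% of tested genes were, and 0 lower, where 13.3% were (by edgeR, DESeq2 and limma-voom alike, with 2 negative changes, REV3L and POLM, at an unadjusted p under 0.05). The other 13 were not called. Their median log2 fold change was 0.01. POLQ, which joins broken ends (0.64 ± 0.12; edgeR adjusted p = 0.00147), and RAD18, the ligase that ubiquitinates PCNA (0.58 ± 0.12; adjusted p = 0.00454), rose most. The lesion-bypass gene POLH (0.38 ± 0.07; edgeR adjusted p = 0.00196) and its fellow MAD2L2 (0.34 ± 0.08; adjusted p = 0.00659) rose less. XRCC1, the scaffold of single-strand break repair, was the remaining gene called higher. Among those not called, POLM (-0.35; edgeR adjusted p = 0.107) and the mitochondrial POLG2 (-0.32; adjusted p = 0.203) had the largest changes, and POLM passed as lower (-0.43, adjusted p = 0.0361) when wild-type long-title library 2 was dropped. Over the alternatives POLM ran from -0.53 to -0.19 and POLG2 from -0.54 (short-title libraries alone) to -0.08 (wild-type short-title library 1 left out). The difference between this list and the 53 genes was not tested.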

How the data were processed

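Poly(A) RNA of SNU-387 cells was made into stranded libraries, per the labels' protocols. Per the submitters' processing notes the tools were CASAVA 1.8.2, Trimmomatic 0.35 and STAR 2.5.1b with the build GRCh38, and the annotation release is not given in the sources used here. The authors deposited read counts per gene for each library, as whole numbers without normalization. The opposite-strand column was used, which held 92.2% to 94.5% of strand-assigned gene reads. Multimapping and ambiguous reads are not in the gene counts. A library had 13334692 to 21348889 reads, of which 20.7% to 30.0% stood on lines that name no gene; these lines, and 45 pseudoautosomal identifiers with 5 counts in all, entered neither tests nor library sizes. Identifiers were matched to GENCODE 29 (57836 of 58174), which gave symbols, exon lengths and overlaps.

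Genes were kept by filterByExpr in edgeR 4.0.16 (R 4.3.3, minimum count 10, minimum total 15), scaled by TMM and tested by glmQLFit and glmQLFTest with title set and genotype as terms, with Benjamini-Hochberg adjustment over 13743 genes and a threshold of 0.05. The SE was taken as the log2 fold change divided by the root of F. The common biological coefficient of variation came to 0.130, and CPM were computed with TMM library sizes. Alternatives were DESeq2 1.42.0, limma-voom (limma 3.58.1), scaling by RLE or by library size only, no filter, a filter of at least 1 CPM in 5 libraries, each title set on its own, a fit without the title set, a replicate block, the T348I long-title libraries summed, 2 wild-type libraries left out together, unstranded counts, and each library left out.

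The 53 genes and all lists were chosen with earlier results of these data known. Libraries are quoted one by one for the gene of lowest p and of smallest change in each sub-complex, and for all genes of sub-complexes with at most 2. From the other 2 lists the 4 called genes of lowest p, up to 2 in the other direction and the 2 uncalled genes of largest change are given. REV3L and XRCC1 were named after their values were seen. Promoter words were exact matches on both strands in the first RefSeq window listed for a gene.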

Additional observations from a re-analysis of the deposited data

Results flagged for a closer look

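In 6 of the 106 sets of 5 libraries (53 genes in 2 genotypes) the most extreme library stood far from its nearest neighbour relative to the range of the set, by Dixon's criterion at the 95% level. Chance alone flags about 1 set in 20. The wild-type long-title library 1 was low for ORC1 (12.6 CPM, next 19.95) and for GINS2 (8.93 CPM, next 12.7), the library that lay lowest over the 53 genes. T348I short-title library 1 was high for MCM4 (200 CPM, next 183) and for POLE2 (13.9 CPM, next 10.5). T348I short-title library 2 was low for CDC6 (72.0 CPM, next 81.7), and wild-type short-title library 2 was high for RPA1 (116 CPM, next 90.3). ORC1, GINS2, MCM4 and CDC6 passed the test under all 23 alternatives. POLE2 was lost in the long-title libraries alone (edgeR adjusted p = 0.0581), which do not hold its extreme library, and RPA1 was lost under 8 alternatives, as given above.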

How the results depend on the processing

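The 53 genes gave 44 to 50 higher calls and 0 to 1 lower calls when single libraries were left out (9.62% to 16.9% of tested genes were called higher there), and the lower call was ORC4 without wild-type long-title library 1. Their median log2 fold change ran from 0.64 to 0.80 in those fits. In the other alternatives 36 (long-title libraries alone) to 49 genes were called higher and 0 lower. Of the 47 higher calls, 31 were kept under all 23 alternatives and 44 when any single library was left out. A total of 42 were kept without the title set term and 44 after the 3 T348I long-title libraries were summed. How many of the higher calls over all tested genes were kept in these ways was not counted. In the summed fit 6.26% of tested genes were called higher, and in the main fit 13.7%. Over 66 named genes no log2 fold change changed sign among 1518 values, 51 lost and 10 gained a call, and the causes were not tested. The further replication genes gave 17 higher and 0 lower calls without the title set term (5.95% of tested genes were called higher and 3.62% lower there), 14 and 0 in the long-title libraries alone (5.21% and 3.73%), and 0 lower with the T348I long-title libraries summed (3.92%). Over single libraries left out they gave 22 to 28 higher and 0 to 1 lower calls. In the repair, bypass and mitochondrial list 1 gene was called higher in the long-title libraries alone (5.21% of tested genes were). The count was 3 in the short-title libraries alone (6.43%) and 3 with the summed libraries (6.26%). This list gave 1 lower call without wild-type long-title library 2 (16.3% of tested genes were called lower), wild-type long-title library 3 (12%) or wild-type short-title library 1 (11.6%). The interaction gave 0 calls among the 53 genes in every fit tried. The median log2 fold change of all genes ran from -0.08 (no low-count filter) to -0.02. It was -0.04 with RLE scaling and -0.03 with library sizes alone. Counts scaled within each library cannot show a shift of all genes, so these medians do not test for one.

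The replicate numbers were not taken to pair the libraries. The correlation of deviations between same-numbered libraries was -0.0253, 0.159 and 0.0745 in the long-title set. There, not every library correlated best with its own number. In the short-title set it was 0.217 for the same number and -0.217 for different numbers. With 2 libraries per genotype the deviations mirror each other, so these short-title values fix each other and cannot decide on a pairing. With the numbers as a replicate block 47 genes were called higher and 0 lower, with a median log2 fold change of 0.73. The further replication genes gave 26 higher calls and 1 lower. In that fit 13.9% of tested genes were called higher and 13.4% lower.

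Leaving 1 library of a short-title pair assumes that the lone library varies like the others. Depth limits the rarest genes most, such as TIPIN and POLE2 at 4.14 to 13.9 CPM, and an uncalled gene is not shown to be unchanged.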
